A study of Mus musculus with 24 samples.

Results

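DNA replication and S phase genes were followed through positive and negative selection of mouse thymocytes. The members are 52 genes whose products license and fire replication origins, synthesize DNA, supply nucleotides, copy chromatin, or control the entry into S phase. They were chosen by symbol, without a threshold on their values, but with earlier results of these data known. Of the 52 genes, 50 had at least 1 probeset on the array, of 12393 genes with a probeset, and 94 probesets belonged to them. No probeset carried the symbol Gins2 or Chaf1a. The filter (a signal of at least 32 on all 3 arrays of at least 1 of 8 groups) was passed by 80 of the 94 probesets and by 49 of the 50 genes. Tyms, the thymidylate synthase, did not pass it and had a mean signal of 22.5 over all arrays. Only Orc1 passed through PreS groups alone, and 48 members also passed in an S+ or S- group.

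The data are 24 arrays of RNA from pools of sorted thymocytes, and the mice were females aged 6 to 8 weeks. All mice carried the 3A9 TCR transgene, a receptor for a hen egg lysozyme peptide on the class II molecule of the H2k haplotype that both strains share, and TCR insHEL mice also carried lysozyme under the insulin promoter, which is expressed at low levels in medullary epithelial cells of the thymus. Pre-selection cells (PreS: CD4+CD8+, CD69- and negative for the 1G12 clonotype) came from TCR mice and from TCR insHEL mice. S+ cells (CD4+CD8low, CD69+ and 1G12+) came from TCR mice and were entering positive selection, whereas S- cells with the same surface phenotype came from TCR insHEL mice and were meeting the antigen. B10 stands for the non-autoimmune B10k strain. NOD stands for the NODk strain, which carries the congenic H2k haplotype on the background of the diabetes-prone NOD strain. In each strain there were 3 arrays each of PreS cells from TCR mice, PreS cells from TCR insHEL mice, S+ cells and S- cells. Cells were stained in the presence of transcription inhibitors before the sort.

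As background, a replication origin is licensed in G1 when the origin recognition complex, Cdc6 and Cdt1 load the Mcm2 to Mcm7 helicase, and it is fired in S phase when Mcm10, Cdc45 and the GINS complex turn that helicase on. Primase and the polymerases then copy both strands behind the Pcna clamp, and most genes of this machinery are transcribed at the G1 to S boundary under E2F factors. In the thymus the CD4+CD8+ compartment is filled by a burst of division before selection, after which small resting double positive cells predominate, and positively selected cells become quiescent single positive cells.

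Sequence was taken around the annotated starts to see how many members hold words of the E2F motif. As most genes of this machinery are transcribed under E2F factors, the choice of members is not independent of that motif. RefSeq windows (build GRCm38.p6, 250 bases before to 50 bases after a start) were found for 44 members, and 4 words of the E2F motif, TTTCCCGC, TTTCGCGC, TTTGGCGC and TTTGCCGC, were searched on both strands, where neighbouring words can overlap. At least 1 word lay in a window of 14 members (31.8%), against 5.1% of the 6410 genes that passed the filter and had a window, and 2.6% of all 27025 genes with one. The 14 members were Cdc6, Cdt1, Dnmt1, Lig1, Mcm3, Mcm5, Mcm6, Mcm7, Orc1, Pola1, Pold1, Pole2, Rfc3 and Uhrf1, and in 9 of them a word lay before the start. The other 30 members had no word. The CCAAT box was found in 59.1% of the members and 42.8% of the filtered genes. A match is a description of the letters and not a binding site.

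The windows shown are 30 bases each, one for each of 7 members described further on, read 5′ to 3′ on the strand of the gene, with the E2F word in capitals. Cdc6 is at chr11:98908002-98908031 (plus strand, word starting 138 bases before the start), Mcm7 at chr5:138172030-138172059 (minus, 165 bases), Orc1 at chr4:108579416-108579445 (plus, 27 bases), Pola1 at chrX:93632275-93632304 (minus, 138 bases), Rfc3 at chr5:151651209-151651238 (minus, 10 bases), Dnmt1 at chr9:20952824-20952853 (minus, 219 bases) and Uhrf1 at chr17:56304117-56304146 (plus, 185 bases).
Cdc6: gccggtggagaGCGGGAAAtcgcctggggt
Mcm7: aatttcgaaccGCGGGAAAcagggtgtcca
Orc1: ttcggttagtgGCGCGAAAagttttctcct
Pola1: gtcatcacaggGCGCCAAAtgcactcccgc
Rfc3: ccggaagtgacgtcgcacgcTTTCGCGCtc
Dnmt1: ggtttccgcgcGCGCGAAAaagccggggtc
Uhrf1: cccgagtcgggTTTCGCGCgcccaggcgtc

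Some facts of the whole series touch the values below. The arrays were of 1 lot and were hybridized on 9 days, and no day held S+ arrays of both strains. The log2 ratio of 3′ to 5′ probesets of the control transcripts, a sign of RNA and amplification quality, ran from 0.99 to 5.82, and the 3 highest were NOD S+ replicates 1 and 2 and NOD PreS TCR insHEL replicate 1. Of the markers of the labelled states, Rag1, the recombinase of double positive cells, was at mean signals of 1046, 119 and 169 in PreS, S+ and S- cells of B10 and 1182, 348 and 251 in NOD, and Ccr7, the receptor that draws cells to the medulla, ran the other way. The 5 measured single positive markers had higher means in S+ and S- than in PreS cells of both strains, except that Cd5, a surface regulator of TCR signals, was at 971 in NOD S+ and 1099 in NOD PreS cells. The summed signal of 6 macrophage and dendritic cell markers was 247, 278 and 457 on the B10 S+ arrays and 574, 844 and 1142 on the NOD S+ arrays. The 5 measured B cell markers, 3 of which passed the filter, summed to 190 to 484 in B10 and 122 to 217 in NOD PreS cells, and among them Pax5, a defining B cell factor, had group means of 4.37 to 7.7.

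In B10 the members were lower in S+ than in PreS cells almost without exception. By limma's test, adjusted over all 12838 kept probesets with a threshold of 0.05, 47 of the 49 members were lower in S+ and 0 were higher, where 9.44% of all probesets were lower and 7.37% higher. Their median log2 fold change was -2.05, against 0.040 over all probesets, and single members ran from -4.77 to -0.16. In S- cells, 43 of 49 were lower than in PreS and 0 were higher (6.8% of all probesets were lower and 4.42% higher), with a median of -1.49. S+ and S- were set against the same PreS arrays. Without overlap between arrays, 46 members lay below PreS on all S+ arrays (9.11% of all probesets) and 0 above (10.1%), and 44 lay below on all S- arrays (7.8%) and 0 above (10.1%). With 3 arrays a group and relative signals, a lower level can come from fewer cells that hold a transcript or from less of it per cell, which cannot be told apart.

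**Figure D1:**
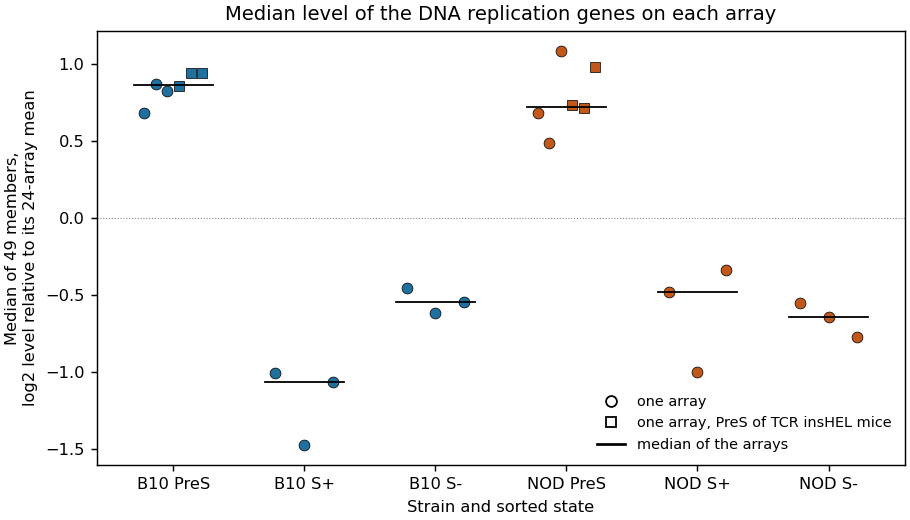
Median over the 49 members of the log2 level on each array, after each member was set relative to its own mean over the 24 arrays; each point is 1 array, squares are PreS pools of TCR insHEL mice, and lines are medians of the arrays. The B10 S+ arrays lie from -1.47 to -1.01, below the B10 S- arrays at -0.62 to -0.46, whereas the NOD S+ arrays (the highest at -0.34) and NOD S- arrays (-0.77 to -0.55) overlap.

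Among the 12 genes of origin licensing, 11 were lower in B10 S+ cells and 10 in S- cells. Mcm7, a helicase subunit and the member of highest mean signal in this role, was at 2673, 2828 and 3253 (lowest, median and highest of 6 arrays) in B10 PreS cells, at 1306, 1412 and 1691 on the S+ arrays and at 1562, 1567 and 1678 on the S- arrays. Its PreS arrays lay above all others, and its fall in S+ was small, at -0.92 ± 0.16 log2 units (± standard error, limma adjusted p = 0.0013). Cdt1, which brings the helicase to origins, was at 1098, 1415 and 1805 in PreS cells, 253, 312 and 650 in S+ and 255, 262 and 534 in S-. Both selected states were low without overlap with PreS, and they overlapped each other.

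Cdc6, the ATPase that loads the helicase with the origin recognition complex, had the largest of the members' log2 fold changes in B10 S+ cells. Its signals were 231, 391 and 578 (lowest, median and highest) in PreS cells, 6.6, 21.8 and 22.5 on the S+ arrays and 41.1, 55.8 and 57.8 on the S- arrays. All S+ arrays lay under 32, near background, so that its 27.2-fold difference from PreS (log2 fold change -4.77 ± 0.38, limma adjusted p = 1.9e-06) is not exact in size. Cdc6, Orc1, Gins1, Pole, Ccne2, Brca1 and Chek1, with Tyms, were the 8 members with a mean signal under 32 in B10 S+ cells.

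Mcm2 did not pass the test in B10 S+ cells, at -1.57 ± 0.52 (limma adjusted p = 0.054). Its S+ arrays stood far apart, at 800.5, 530.3 and 79.1, against 795 to 1341 in PreS cells. A second Mcm2 probeset was lower in S+ at -1.64 (limma adjusted p = 0.0012) and in S- at -1.32 (adjusted p = 0.0080). Gmnn, which blocks Cdt1 after licensing, was at 778, 877 and 971 in PreS cells, 103, 115 and 156 in S+ and 225, 225 and 314 in S-, so that its 3 states in B10 did not overlap.

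All 5 measured genes of origin firing were lower in both selected states of B10. Mcm10, which activates the loaded helicase, was at 419, 459 and 512 in PreS cells, 47.1, 59.6 and 88.0 in S+ and 94.5, 124 and 132 in S-. Gins1, a subunit of the GINS complex, was at 213, 273 and 411 in PreS cells, 24.7, 31.8 and 34.0 in S+ and 94.1, 98.7 and 102 in S-. In both genes the S- arrays lay between the other states, without overlap. Cdc45, Cdc7 and Dbf4, the last of these the partner of the Cdc7 kinase, had log2 fold changes of -2.62, -1.50 and -1.42 in S+.

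Of the 8 genes of primase and the polymerases, 8 were lower in B10 S+ cells and 7 in S- cells, where Pola2 was at -0.79 (limma adjusted p = 0.064). Prim1, the catalytic primase subunit, was at 799.5, 1032 and 1129 in PreS cells, 104, 110.0 and 164 in S+ and 308, 344 and 495 in S-. Pold1, the catalytic subunit of polymerase delta, was at 475, 555 and 705 in PreS cells, 94.9, 126 and 135.3 in S+ and 135.6 on the lowest of the S- arrays, the median of which was 191. The S+ and S- arrays of Prim1 stood well apart, and those of Pold1 only just failed to overlap. Pole, the catalytic subunit of polymerase epsilon, had signals of 3.0, 9.7 and 42.8 on the S+ arrays, and its fold change of -4.57 ± 0.61 rests on values near background.

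The sliding clamp, its loader and the single-strand binding and strand joining proteins held the smallest changes, with a median of -1.28 over 11 genes in B10 S+ cells. Pcna, the clamp itself, was at 3226, 3487 and 3883 in PreS cells, 1203, 1309 and 1802 in S+ and 1685, 1901 and 2164 in S-. Rpa1, the large subunit of the single-strand binding protein, did not pass the test in S+ (-0.16 ± 0.16, limma adjusted p = 0.57) or S- cells (-0.29, adjusted p = 0.30), with signals of 3071 to 3476 in PreS, 2642 to 3057 in S+ and 2273 to 2722 in S-. A second Rpa1 probeset was lower in S+ at -0.97 (limma adjusted p = 0.032). Lig1, the ligase that joins Okazaki fragments, was at 781, 945 and 1522 in PreS cells, 94.5, 112 and 127 in S+ and 189, 261 and 284 in S-, with no overlap between its states.

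The 4 measured genes of nucleotide supply were lower in both selected states, with a median of -3.29 in S+ and -1.94 in S-. Rrm2, the small subunit of ribonucleotide reductase, was at 1462, 1938 and 2161 in PreS cells, 59.3, 125 and 379 in S+ and 307, 338 and 532 in S-. Its S+ and S- arrays overlapped through S+ replicate 1. Tk1, the thymidine kinase of S phase, was at 435, 609 and 863 in PreS cells, 38.9, 41.2 and 47.6 in S+ and 121, 134 and 207 in S-, with the S+ arrays close together and apart from all others (S+ log2 fold change -3.84 ± 0.25, limma adjusted p = 6.1e-07).

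All 4 measured genes of chromatin copying were lower in B10 S+ cells and 3 in S- cells. Dnmt1, which copies DNA methylation, was at 1023, 1308 and 1591 in PreS cells, 415, 504 and 678 in S+ and 435, 567.8 and 619 in S-. Uhrf1, which brings Dnmt1 to newly made DNA, had 1 PreS array at 34.7 and the other 5 from 826 to 1135. Its fall in S+ (-2.89 ± 0.93, limma adjusted p = 0.048) had a large error. Without any single B10 array other than that PreS array, its limma adjusted p was 0.055 to 0.22. Uhrf1 was the gene of this role not called in S- cells. A second Uhrf1 probeset, with a low mean signal of 41.2 over all arrays, was lower there at -5.52 (limma adjusted p = 2.8e-04).

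The 5 genes of S phase entry and checkpoint were lower in S+ and in S- cells of B10. The cyclins Ccne1 and Ccne2, which start S phase with Cdk2, had S+ log2 fold changes of -2.31 and -3.60, and E2f1, the transcription factor, of -1.85. Brca1, a repair factor at stalled forks, had one of -3.20. Chek1, the kinase that restrains origin firing when forks stall, was at 128, 199.6 and 332 in PreS cells, 12.2, 28.3 and 33.1 on the S+ arrays and 61.1, 82.3 and 102 on the S- arrays, without overlap between states.

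**Figure D2:**
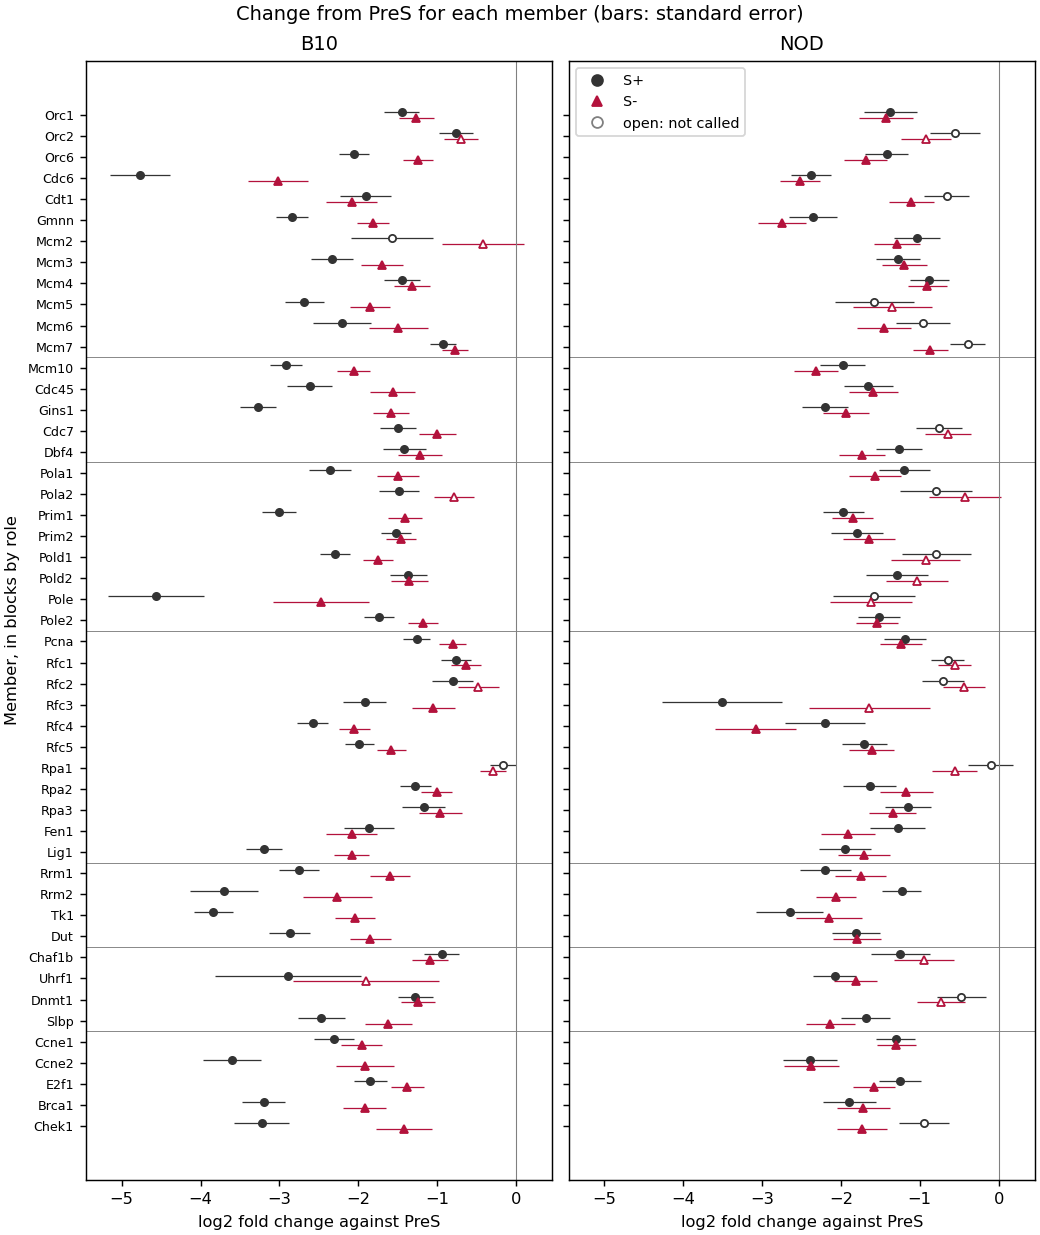
Log2 fold change against PreS cells (x axis) for each of the 49 members (y axis, in blocks by role in the order licensing, firing, primase and polymerases, clamp to strand joining, nucleotide supply, chromatin copying, S phase entry and checkpoint), in B10 on the left and NOD on the right; bars are standard errors, and open symbols did not pass the test. In B10 the S+ circles lie further from 0 than the S- triangles for most members, and in NOD the 2 symbols lie close together.

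The comparison of S- with S+ cells asks how the cells that met the antigen differ from those that did not. In B10, 6 of 49 members were higher in S- cells and 0 were lower, where 1.29% of all probesets were higher and 0.374% lower, and 45 of the 49 had a log2 fold change above 0, with a median of 0.64 (all probesets -0.012). S- arrays lay above all S+ arrays for 23 members (8.62% of all probesets) and below them for 0 (7.3%), and by group mean S- lay between S+ and PreS for 45 members. The 6 genes were Tk1 at 1.79 ± 0.29 (3.47-fold, limma adjusted p = 0.0064), Gins1 at 1.69 ± 0.26 and Prim1 at 1.60 ± 0.25 (both at an adjusted p of 0.0053), Chek1 at 1.81 ± 0.41 (adjusted p of 0.042), Gmnn at 1.02 ± 0.23 (adjusted p of 0.040) and Lig1 at 1.11 ± 0.26 (adjusted p of 0.048). Signals of Gins1 and Chek1 in S+ cells were near background, with means under 32, which leaves how far they differed uncertain. The 6 genes come from 6 of the 7 roles, and none is a gene of chromatin copying.

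The values behind this difference were seen in both pairs of B10 arrays hybridized on the same day. On day 1 the median S- minus S+ difference was 0.35 with 41 of 49 members above 0, and on day 8 it was 1.08 with 44 above 0. Tk1, Gins1 and Prim1 were at 1.47, 1.38 and 1.53 on day 1 and at 2.16, 2.10 and 2.20 on day 8. Cdc6 was at 0.73 and 3.21 on these days and, over all arrays, at 1.75 ± 0.44 (limma adjusted p = 0.071), and Rrm2 was at 0.47 and 2.55. The count of 6 was small and not stable: 3 members passed without S+ replicate 2, without S- replicate 1 or 2, or without PreS TCR replicate 1 or 2. Tk1, Gins1 and Prim1 passed in all 27 alternatives, whereas Lig1 failed in 19 of them, Gmnn in 15 and Chek1 in 14. A further Rrm2 probeset was higher in S- cells, at 1.72 (limma adjusted p = 0.027), and the second Chek1 probeset was not called, at 1.05 (adjusted p = 0.31).

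Markers that could accompany this difference were measured on the same arrays. The summed signal of 5 double positive markers was 555, 600 and 753 on the S+ arrays and 720, 884 and 1080 on the S- arrays of B10, against 4004 to 5560 in PreS cells. The macrophage and dendritic cell markers summed to 247, 278 and 457 in S+ and to 280, 356 and 1258 in S-, the highest value being that of S- replicate 3. The 5 B cell markers summed to 110, 129 and 149 in S+ and to 188, 193 and 259 in S-, without overlap. The 3 of them that passed the filter had log2 differences above 0, with a median of 0.93, and 0 passed the test. The part of these cells in the result was not tested. In the same comparison 16 of 19 genes of a mitosis list were higher in S- cells (1.29% of all probesets), with a median of 1.69. Among them were Mki67, the proliferation antigen, at 3.01, Top2a, the topoisomerase of chromosome condensation, at 1.69 and Cdc20, the activator of the anaphase ligase, at 1.62.

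In NOD the members were also lower after selection, with S+ and S- close to each other. In S+ cells 35 of 49 were lower than in PreS cells and 0 higher (8.66% of all probesets were lower and 6.13% higher), with a median of -1.31, and 35 lay below PreS on all arrays (6.43%). In S- cells 36 were lower and 0 higher (5.68% and 5.51% of all probesets), with a median of -1.58, and 37 lay below PreS on all arrays (7.69%). Between S- and S+ cells of NOD, 0 members and 0 of all 12838 probesets (0.0%) passed the limma test, while 565 probesets and 1 member had an unadjusted p under 0.05. The median difference was -0.03, with 23 members above 0 and 26 below. By array weights, the alternative that gave the most calls, 6 members passed, with no share of all probesets given for that setting. Only Pola1 and Rrm2 had all S- arrays below all S+ arrays (4.04% of all probesets), and 0 had them above (4.02%). For Rrm2 this was its probeset of highest signal, and its other probesets had log2 fold changes of 1.09 and 0.22. On the days with both NOD states, the median S- minus S+ difference was -0.16 (day 2) and -0.19 (day 5).

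The NOD S+ arrays carry doubts that bear on their count. Replicates 1 and 2 had 3′ to 5′ ratios of 5.82 and 5.15, and without them and NOD PreS TCR insHEL replicate 1, 11 members were lower in S+ than in PreS cells, in a fit where the lone S+ array was assumed to vary like the other groups. Leaving out S+ replicate 2 alone gave 21. With the hybridization day as a block, which uses only differences within days, 42 members passed in B10 S+ and 9 in B10 S-. In that setting 0 passed in NOD S+ and 0 in NOD S-, with no share of all probesets given for it. Arrays of the same day gave 48 of 49 members below 0 for NOD S+ minus PreS on day 3 (median -1.52). They gave 49 of 49 for B10 S+ minus PreS on days 6 and 8 (medians -2.01 and -2.30) and 48 of 49 for B10 S- minus PreS on day 8 (median -1.27). NOD S+ and PreS shared only day 3, with 1 array each. No day held both NOD S- and NOD PreS arrays, so that the NOD S- fall could not be seen within a day. With the day as a block, NOD S- was tied to NOD PreS only through S+ arrays and the pair of day 3. The counts of 0 in NOD under that setting therefore had few arrays to rest on. Rfc3, a subunit of the clamp loader, had NOD S+ signals of 19.9, 3.6 and 106.7, so that its log2 fold change of -3.51 ± 0.76 rests on scattered values near background.

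**Figure D3:**
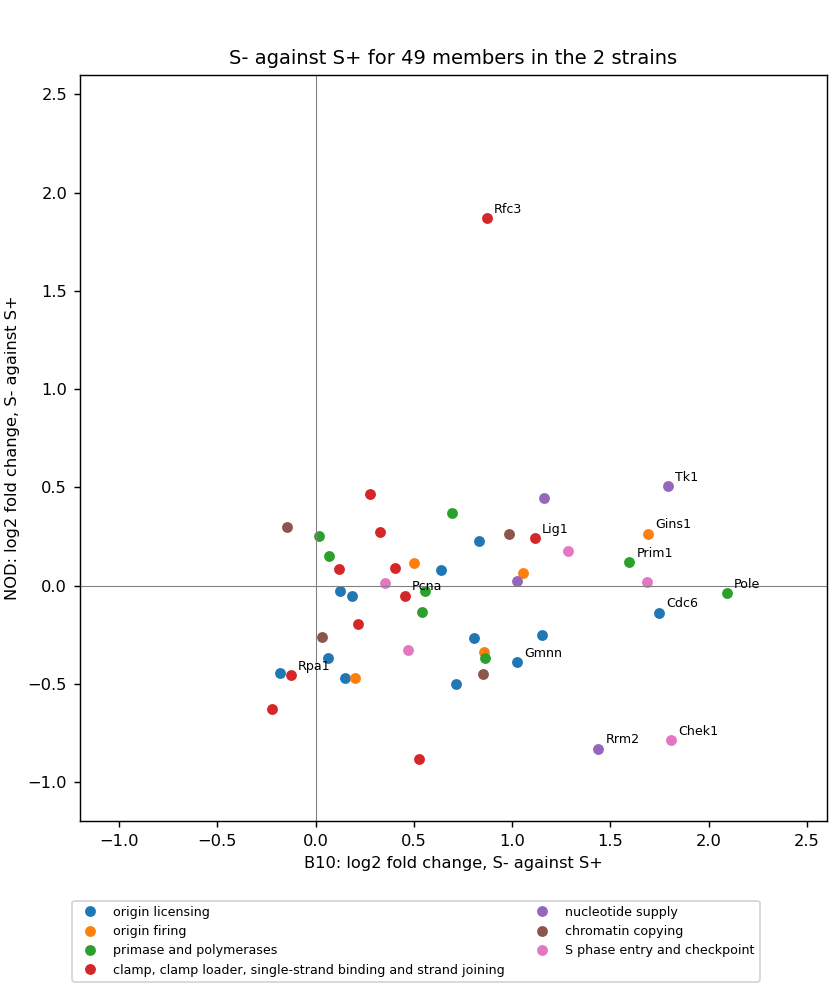
Log2 fold change of S- against S+ cells in B10 (x axis) and in NOD (y axis), 1 point for each of the 49 members, coloured by role. Most points lie to the right of 0 on the B10 axis (45 of 49) and are split around 0 on the NOD axis (23 above, 26 below), and Chek1 and Rrm2 lie at 1.81 and 1.44 in B10 and at -0.79 and -0.83 in NOD. Their further probesets, not drawn, were above 0 in NOD, at 0.13 for Chek1 and at 1.09 and 0.22 for Rrm2.

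NOD was compared with B10 in each state, and most of the calls among members were in S+ cells. At PreS, 0 of 49 members differed (1.65% of all probesets were higher and 2.48% lower in NOD), with a median of -0.02. An unadjusted limma p under 0.05 was held by 5 members and by 2347 of all 12838 probesets. With quantile normalization 1 member passed. On all NOD arrays 0 members lay below (2.03% of all probesets) or above (1.08%) B10. In S+ cells 7 of 49 were higher in NOD and 0 lower, where 1.84% of all probesets were higher and 1.86% lower, with a median of 0.60 and 42 members above 0. For 19 members all NOD S+ arrays lay above all B10 S+ arrays (8.72% of all probesets), and for 0 below (5.91%). In S- cells 1 of 49 was lower in NOD and 0 higher (1.15% of all probesets were lower and 1.17% higher), with a median of -0.07.

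The 7 members were Rrm2, Chek1, Cdc6, Pola1, Mcm10, Gins1 and Prim1. Rrm2 was at 59.3, 125 and 379 on the B10 S+ arrays and at 824, 965 and 1193 on the NOD S+ arrays, a log2 difference of 2.88 ± 0.43 (7.38-fold, limma adjusted p = 2.2e-04), with no overlap. Chek1 was at 12.2, 28.3 and 33.1 in B10 and 79.2, 146 and 194 in NOD (2.53 ± 0.40, adjusted p = 4.5e-04 by limma). Cdc6 was at 6.6, 21.8 and 22.5 in B10 and 65.0, 79.6 and 80.6 in NOD (2.28 ± 0.39, limma adjusted p = 8.9e-04). In all 3 genes each NOD array lay above each B10 array, and the B10 signals of Chek1 and Cdc6 were near background.

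The other 4 differences were smaller and did not overlap between strains. Pola1, the catalytic subunit of polymerase alpha, was at 35.1, 43.1 and 46.3 in B10 S+ cells and 97.0, 97.8 and 121 in NOD S+ cells (log2 difference 1.30 ± 0.35, limma adjusted p = 0.037). Mcm10 was at 110, 143 and 231 in NOD S+ cells (1.27 ± 0.28, limma adjusted p = 0.010), and Gins1 at 48.3, 86.9 and 92.3 (1.22 ± 0.30, adjusted p = 0.025). Prim1 was at 199.7, 200.2 and 382 in NOD S+ cells (1.00 ± 0.27, limma adjusted p = 0.039), and its second probeset was also higher, at 1.71 (adjusted p = 0.0037).

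Probesets of one gene did not always give the same call. Of 31 further probesets of members, 9 had another call than the main one in B10 S+, 12 in B10 S-, 14 in NOD S+ and 16 in NOD S- against PreS, 2 in B10 S- against S+ and 6 in S+ cells of NOD against B10. A second Brca1 probeset was at 0.63 in B10 S+ (limma adjusted p = 0.25), and a second probeset of Rrm1, the large subunit of ribonucleotide reductase, at -0.03 in NOD S- (adjusted p = 0.98). For Rrm2, the other 2 probesets had NOD against B10 values in S+ cells of 0.41 and 3.24, with limma adjusted p-values of 0.74 and 0.051, and for Chek1 the other probeset had 0.34 (adjusted p = 0.68). Further probesets of Mcm7 and Dnmt1 were higher in NOD S+ cells, at 0.92 (limma adjusted p = 0.048) and 1.27 (adjusted p = 0.020), where those of highest signal were at 0.67 and 0.50. A second probeset of Prim2, the large primase subunit, was lower in NOD at PreS, at -2.45 (limma adjusted p = 3.9e-06), and in S+ cells, at -1.57 (adjusted p = 0.027), while its main probeset was at -0.34 and -0.61 and did not pass.

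**Figure D4:**
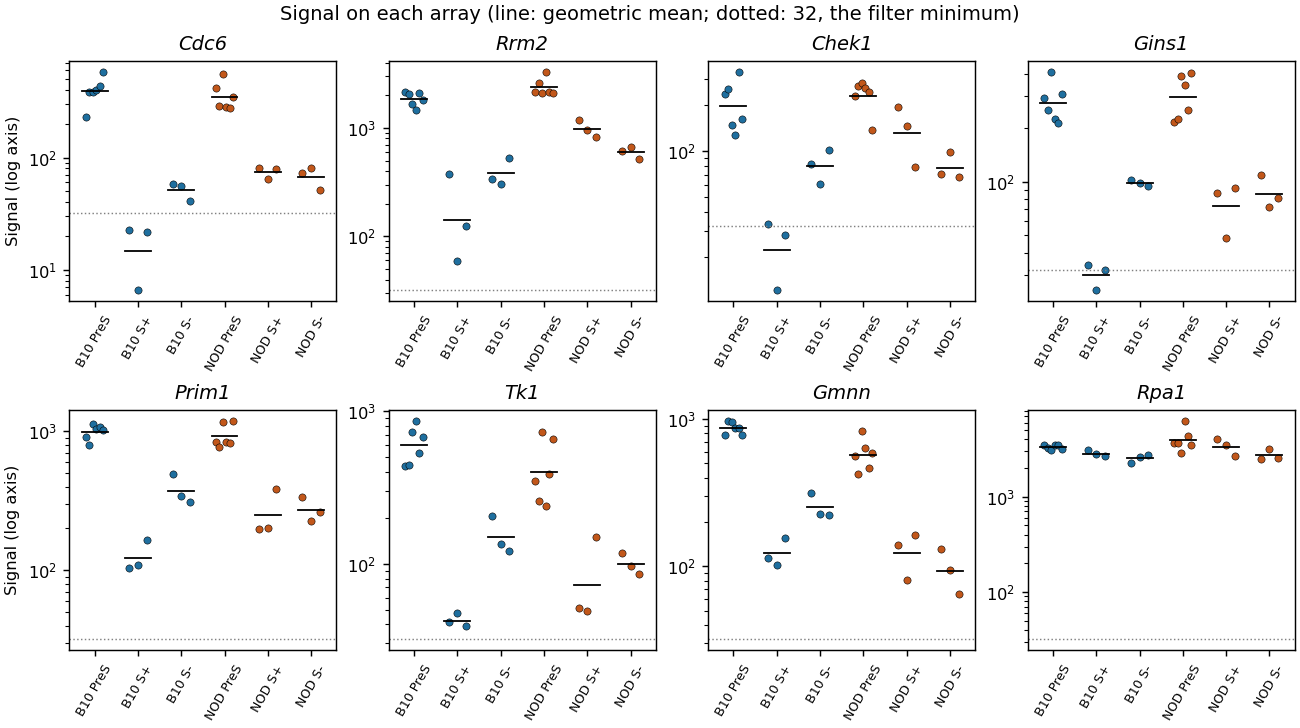
Signal on each array (log axis) for 8 members in the 6 combinations of strain and state; each point is 1 array, lines are geometric means, and the dotted line is the filter minimum of 32. Cdc6, Rrm2 and Chek1 are lower in B10 S+ cells (medians 21.8, 125 and 28.3) than in NOD S+ cells (79.6, 965 and 146), and Rpa1 lies at 2273 or above on all arrays.

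Gmnn was the member that differed between strains in S- cells, at 225, 225 and 314 in B10 and 64.4, 94.8 and 131 in NOD. All NOD arrays were below all B10 arrays, with a log2 difference of -1.47 ± 0.29 (limma adjusted p = 0.0051), a call that was lost without NOD S- replicate 3. Its S+ signals (81 to 162 in NOD and 103 to 156 in B10) overlapped, and its PreS signals were 422, 577 and 837 in NOD. For 6 members, Orc6, Gmnn, Pola2, Prim2, Tk1 and Dut, all NOD S- arrays lay below all B10 S- arrays, where 12.6% of all probesets did, and for 0 they lay above (15.1%).

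The difference between strains in the change itself was tested in 1 fit of 24 arrays. For S+ against PreS, 3 of 49 members fell less in NOD and 0 fell more (0.312% of all probesets passed with a positive and 0.0467% with a negative difference), with a median of 0.68: Rrm2 at 2.47 ± 0.52 (limma adjusted p = 0.032), Cdc6 at 2.38 ± 0.47 (adjusted p = 0.022) and Chek1 at 2.28 ± 0.49 (adjusted p = 0.041). For S- against PreS 0 passed (0.0623% of all probesets positive and 0.0389% negative). An unadjusted limma p under 0.05 was held by 2 members and by 1581 of all 12838 probesets. For S- against S+ 0 passed by limma (0.132% of all probesets were negative and 0.0156% positive), although 44 of 49 lay below 0 with a median of -0.67. An unadjusted limma p under 0.05 was held by 18 members and by 990 of all 12838 probesets. The lowest of these 18 members was Chek1, at -2.60 ± 0.57 (limma adjusted p = 0.060). By array weights 11 members passed, with no share of all probesets given for that setting.

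The count of 7 in S+ cells moved with single arrays, and the S+ arrays of the strains were hybridized on different days. It was 3 without B10 S+ replicate 2 or without NOD S+ replicate 1, 11 without B10 S+ replicate 1 and 14 without NOD S+ replicate 3, and it was 4 without the 3 arrays of highest 3′ to 5′ ratio and 2 with the day as a block. Of the 3 differences in the change from PreS, 0 passed without B10 S+ replicate 2, NOD S+ replicate 1 or NOD S+ replicate 2. Only 1 passed without B10 S+ replicate 3, B10 PreS TCR replicate 1 or 2, NOD PreS TCR replicate 1, or replicate 2 or 3 of PreS TCR insHEL of either strain. Csf1r, a macrophage receptor, was at 86.3, 86.4 and 178 on the B10 S+ arrays and 182, 440 and 654 on the NOD S+ arrays. The double positive markers summed to 534, 803 and 1607 on the NOD S+ arrays, against 555 to 753 in B10. The B cell markers summed to 169, 268 and 269 on the NOD S+ arrays, above the 110 to 149 of the B10 S+ arrays, with Ms4a1 (CD20) at means of 93.2 and 32.6 and Cd79a, a part of the B cell receptor, at 59.4 and 31.7. The part of these cells or of RNA quality in the strain difference was not tested.

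Among PreS cells the members were also compared between mice with and without the antigen transgene. In B10, 0 of 49 members and 0.0% of all probesets passed between PreS cells of TCR insHEL and TCR mice (0 members and 287 probesets had an unadjusted p under 0.05 by limma). In NOD, 0 members passed and 0.0312% of all probesets were lower (2 members and 1333 probesets had an unadjusted p under 0.05 by limma). The median differences were 0.11 and 0.07.

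Other genes of the pathway, from lists drawn up by function, were lower in smaller shares after selection. Between B10 S+ and PreS cells, 9.44% of all probesets were lower and 7.37% higher. Of 21 further replication genes, 10 were lower in B10 S+ than in PreS cells and 0 higher, with Tipin, a fork protection factor, at -2.11 (limma adjusted p = 7.3e-05), Top1, a topoisomerase, at -0.08 and Rnaseh2c, a ribonuclease H subunit, at -0.38. Of 12 further genes of nucleotide supply, 7 were lower and 1 higher, with Dtymk, the thymidylate kinase, at -0.88 (limma adjusted p = 0.014) and Paics, a purine synthesis enzyme, at -0.83 (adjusted p = 0.014), while Nme1, a nucleoside diphosphate kinase, was at -0.62 and did not pass (adjusted p = 0.095). Of 26 further genes of S phase control and chromatin copying, 18 were lower and 0 higher, with Usp1, a deubiquitinase of Pcna, at -1.11 (limma adjusted p = 0.0055), while the histone chaperones Rbbp4 and Rbbp7 were at 0.05 and -0.02. In S+ cells of NOD against B10 these lists had 2 of 21, 1 of 12 and 7 of 26 genes higher and 0 lower, and the mitosis list had 9 of 19 higher with a median of 1.34. Of all probesets, 1.84% were higher and 1.86% lower there.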

How the data were processed

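RNA of sorted thymocytes went through 2 rounds of amplification before it was hybridized to Affymetrix MOE430A arrays. The authors deposited MAS5 signal intensities on a linear scale, with the trimmed mean of every array set to 150, for 22690 probesets. Here 64 control probesets were removed, 33 zeros were set to 0.1, and the log2 values of each array were brought to a common mean and variance. Present calls and probe intensities were not used here, and the filter of 32 took their place (12838 of 22626 probesets, 7831 genes). Symbols came from the platform annotation, and a gene was represented by its probeset of highest mean signal. Comparisons used limma 3.58.1 in R 4.3.3, within each strain with both PreS groups merged, or in 1 fit of all 24 arrays for strains, with Benjamini-Hochberg adjustment over the kept probesets. The script for this was tested on simulated data. Signals, mostly as the lowest, median and highest of a group, are given in B10 for the members of highest mean signal in each role. They are also given for members that differed between S- and S+ in B10 or between strains, and for those set apart from the others. Of other lists, up to 3 genes of highest mean signal are named. Rfc3, Pole and Uhrf1 were named after their values were seen. Members and lists were chosen with earlier results of these data known. The labels do not say whether replicates are separate animals beyond separate pools, so p-values measure the spread between pools. Replicates correlated at 0.843 to 0.967, and 3 arrays a group limit the precision.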

Additional observations from a re-analysis of the deposited data

Results flagged for a closer look

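In 98 groups of 6 PreS arrays, 5 members had 1 array far from the others, which is near the 1 in 20 that chance would flag. In B10 PreS cells, Pola1 was at 365.8 on TCR insHEL replicate 2 against 146 to 208 on the others, and Uhrf1 at 34.7 on TCR insHEL replicate 1 against 826 to 1135. In NOD PreS cells, Cdt1 was at 524.6 and Pold1 at 102.3 on TCR insHEL replicate 1, against 1199 to 1406 and 334 to 633 on the others, and this array had a log2 3′ to 5′ ratio of 4.94. Chek1 was at 137.5 on NOD TCR insHEL replicate 3 against 232 to 281.

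In 3 members the change from PreS to S+ cells differed between the strains by the limma test of the difference itself: Cdc6 by 2.38 log2 units (adjusted p = 0.022), Rrm2 by 2.47 (adjusted p = 0.032) and Chek1 by 2.28 (adjusted p = 0.041), each falling less in NOD. For Rrm2 and Chek1 other probesets of the gene did not pass, at 0.77 and 2.24 for Rrm2 and 0.89 for Chek1.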

How the results depend on the processing

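No member that passed the test reversed its direction under any alternative, and of 4923 values of single members under other settings 468 no longer passed. Of 202 counts of members under other settings, 33 moved by more than 1.5 times. With the hybridization day as a block the counts were 9 for B10 S- against PreS, 0 for NOD S+ and 0 for NOD S- against PreS, 4 for NOD PreS TCR insHEL against TCR, 2 for S+ cells of NOD against B10, 0 for the strain difference in S+ against PreS and 1 in S- against S+. With array weights they were 10 for B10 and 6 for NOD S- against S+, 17 for S+ and 8 for S- cells of NOD against B10, and 7, 2 and 11 for the strain differences in S+ against PreS, S- against PreS and S- against S+. Without a filter they were 3 for B10 S- against S+, 4 for S+ cells of NOD against B10 and 0 for the strain difference in S+ against PreS. Without the 3 arrays of highest 3′ to 5′ ratio, an alternative chosen after seeing the data, they were 11 for NOD S+ against PreS, 4 for S+ cells of NOD against B10 and 0 for the strain difference in S+ against PreS. The day as a random block gave 10 for B10 S- against S+ and 1 for the strain difference in S- against S+. The strain difference in S+ against PreS was 1 by the methods' t-test, 7 with the 3′ to 5′ ratio as a covariate and 0 with only PreS arrays of the matching genotype (TCR for S+ and TCR insHEL for S-). The strain difference in S- against S+ was 3 with that covariate and 1 with MAS 5.0 scaling only, with a floor of 16, with a filter at 64 and with the median over probesets. PreS cells of NOD against B10 gave 1 with quantile normalization and 1 with the median over probesets. With the replicate number as a block B10 S- against S+ gave 3, and this setting moved no other count by over 1.5 times. Deviations of same-numbered arrays correlated at 0.051 on average (-0.314 to 0.632 over 36 pairs), against -0.026 for other numbers. The arrays were treated as unpaired, and the labels do not say whether a shared number marks a pair. The causes of these moves were not tested.

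With each array left out in turn the counts were 43 to 46 for B10 S+ and 36 to 45 for B10 S- against PreS, 3 to 7 for B10 S- against S+, 21 to 38 for NOD S+ and 26 to 40 for NOD S- against PreS, 0 to 1 for NOD S- against S+ (1 without NOD S+ replicate 3), 3 to 14 for S+ and 0 to 1 for S- cells of NOD against B10, 0 to 4 for the strain difference in S+ against PreS and 0 to 2 in S- against S+ (2 without B10 S+ replicate 1 and 1 without NOD S+ replicate 3); the other comparisons stayed at 0. MAS 5.0 scaling only moved the median of all probesets to 0.107 in B10 S+, 0.156 in NOD S+ and 0.18 in NOD S- against PreS, and the share of calls that were higher from 43.8 to 49.8%, 41.4 to 57.0% and 49.3 to 63.3%, and in B10 S- against PreS from 39.4 to 50.8%. Quantile normalization moved that share from 61.5 to 38.1% in the strain difference in S- against PreS. Precision is limited by 3 arrays a group and by signals near background in B10 S+ cells.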
